A study of Salmo salar with 57 samples.

Results

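Claudins 14, 15 and 18 (CLD14, CLD15 and CLD18) and cadherin-2 (CADH2) are proteins of the contacts between cells, and their expression was followed in the distal intestine of Atlantic salmon over 6 diets. Each was read by 1 probe, Ssa_GRASP223648607 for CLD14, Ssa_S18866043 for CLD15, Ssa_EG893818 for CLD18 and Ssa_DV106489 for CADH2, so that the members are 4 of the 14841 probes on the array. They are the claudins and the cadherin that the study singled out from these same arrays, as lower in SC and SBM fish (diets below). Their counts below are therefore not independent evidence of a direction. All 4 passed the filter on dim probes that left 12065 probes for testing.

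Salmon were fed a fish meal diet (FM), a diet in which soybean meal replaced part of the fish meal (SBM), or a diet with soybean meal plus a microbial ingredient. The ingredient took the place of further fish meal, so these diets held less fish meal than SBM and slightly more fish oil. It was the alga Chlorella vulgaris in CV and a yeast in the others. The yeasts were Candida utilis in CU, Saccharomyces cerevisiae in SC and Kluyveromyces marxianus in KM. Gene expression was measured on 57 one-colour arrays, 1 per fish, with 7 fish in SBM and 10 in each of the other groups. The labels name a diet by a letter only, and each letter was assigned its diet from the histology scores per fish and from the only group of 7. The study fed each diet to replicate tanks, and it left out 1 SBM tank whose histology differed from that of the other SBM tanks. Tanks are not given in the labels, and fish were therefore treated as independent. The p-values measure the spread between these fish, not between tanks, and may be too small if fish of a tank were alike.

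Claudins are membrane proteins that form the strands of tight junctions, which seal the space between neighbouring epithelial cells and set which ions may pass through it. Cadherins bind cells to each other in the presence of calcium and are linked to the actin skeleton through catenins at adherens junctions, while related cadherins hold desmosomes together. In the intestine these junctions keep the contents of the lumen apart from the tissue below.

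The arrays differed little as a whole, with correlations of 0.934 to 0.991 between any pair. Intestinal markers were present, since the probe of FABPI, the fatty acid-binding protein of enterocytes, had a mean log2 intensity of 15.07 in FM and that of the peptide transporter S15A1 10.96. Arrays were hybridised on 9 slides, which each held several diets, but the position number on a slide followed the diet. This number, from 1 to 4, is only part of the place, since arrays of 1 slide could share it. On slide 7, for example, FM fish 1 and SC fish 4 both had position 4. FM and SC shared position 4, with 9 of 10 arrays each, and SBM and CV shared position 3, with 7 of 7 and 9 of 10 arrays. KM had 9 of 10 arrays at position 2 and CU all 10 at position 1. Comparisons of SC with FM and of CV with SBM thus lay mostly within 1 position number. The rest of the place was not read, so the place may have differed with the diet there too. For SBM, KM, CU and CV against FM the position number itself changed with the diet. Values are given as log2 of quantile-normalized intensity, and a fold change (FC) as the difference of such values from FM.

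The members were read at different heights on the array. The mean log2 intensity over 57 fish was 10.95 for CLD15, 6.15 for CLD18, 5.72 for CADH2 and 5.39 for CLD14. CLD15 stood at the 80.4th percentile of all probes tested, while the other members stood between the 14.6th and the 23.7th. Intensities of different probes do not rank the genes by abundance. The background-subtracted signals of CLD14 in FM fish were between 26.4 and 99.2 units, those of CLD15 between 1136 and 3123.

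In fish fed SC 3 of the 4 members, CLD14, CLD15 and CADH2, were below FM. The same was found for these members in fish fed KM, and for CLD14 and CADH2 in fish fed SBM. No member was called in CU or CV. A call here means that limma's nested F-test over the 5 contrasts passed an adjusted p of 0.05 for the diet and that the log2 FC was at least 0.4 in size. Of all 12065 probes, 22.5% were called in SC in either direction and 9.28% below FM. In SBM 22.3% were called, 8.61% below FM, and in KM 11.2%, 1.86% below FM. The shares were 5.36% and 3.34% in CU and 10.6% and 0.605% in CV. With 75th percentile scaling the calls in either direction fell from 1279 to 575 in CV and from 1347 to 925 in KM, and with the diet's median over all probes subtracted to 548 and 859. The median log2 FC of the members was −0.87 in SC, −0.89 in KM, −0.65 in SBM, and −0.38 and −0.27 in CU and CV. Over all probes tested these medians were 0.06, 0.14, 0.09, −0.01 and 0.17. Arrays hold whole tissue, so fewer cells of a type and less RNA per cell cannot be told apart.

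**Figure D1:**
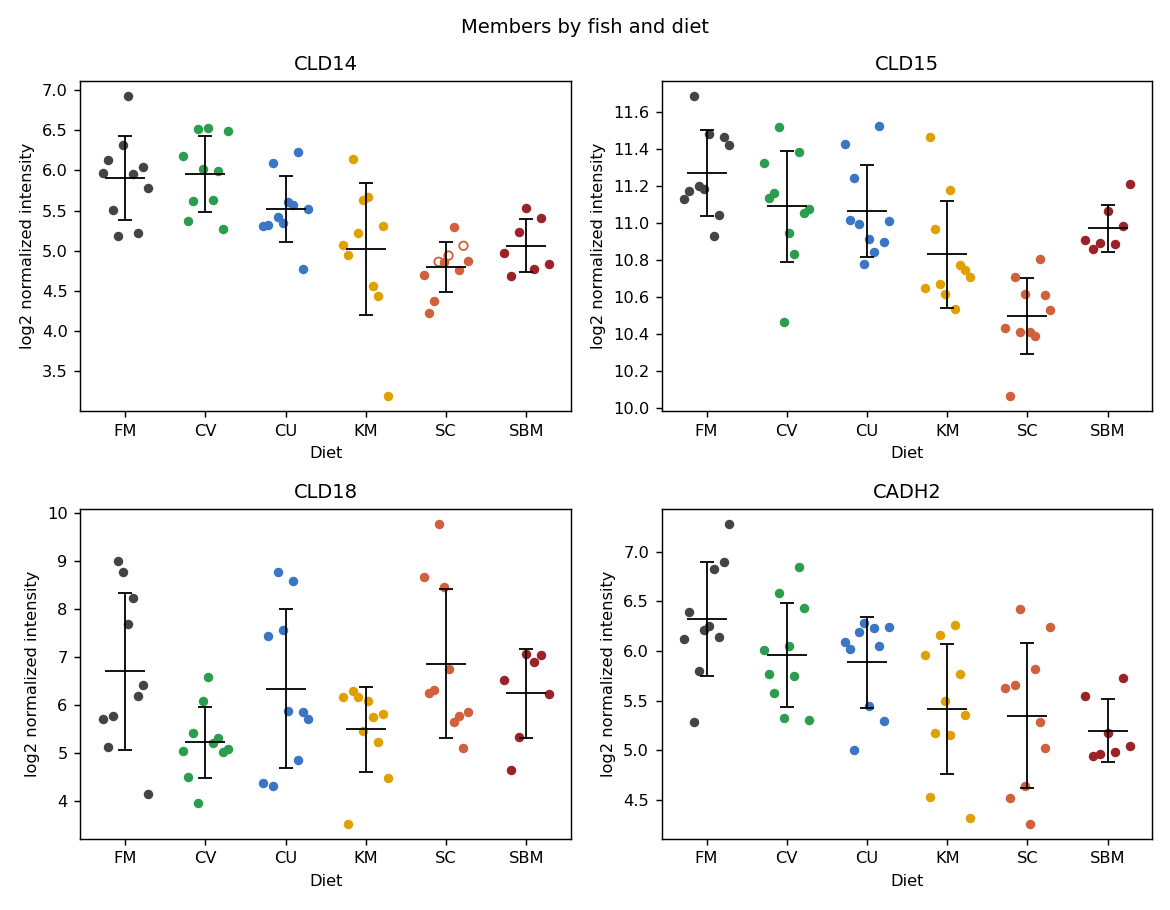
Log2 normalized intensity of the 4 members (y axis) in each fish by diet (x axis), with 1 point per fish, open points for imputed values, and a black bar with whiskers for the mean ± SD. All 10 SC fish lie below the lowest FM fish for CLD15, while for CLD18 the fish of each diet are widely spread.

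CLD15 is known in mammals as a claudin that forms pores for small cations in the intestinal tight junction. In FM fish its lowest value was 10.93, the median 11.19 and the highest 11.68. In SC fish the values ran from 10.06 over a median of 10.48 to 10.80. No SC fish reached the lowest FM fish. Of all probes tested 4.66% separated the SC and FM fish completely, in either direction. The log2 FC in SC was −0.77 ± 0.11 (SE, n = 10), a 1.71-fold lower intensity (adjusted p = 2.94e-06, limma's F-test over the 5 contrasts). In KM fish the values were between 10.53 and 11.46, with a median of 10.72. There 7 of 10 fish lay below the lowest FM fish, and 1 lay above the FM mean. Complete separation of KM and FM fish, in either direction, was found for 0.547% of all probes and not for CLD15. For partial counts, here and below, the share over all probes was not computed. The log2 FC in KM was −0.44 ± 0.11 (SE, n = 10), close to the limit on size, and without FM fish 3 it was −0.39 and no longer called.

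In SBM the CLD15 values lay close together, from 10.86 to 11.21 with a median of 10.91, and all 7 were below the FM mean. Their SD of 0.13 was the smallest of the 6 diets for this probe. The log2 FC of −0.30 ± 0.12 (SE, n = 7) was under the limit on size and was not called (adjusted p = 0.0519 for this contrast alone). With the authors' deposited table of values it was −0.32 and also not called, although the study named CLD15 among the genes lowered in SBM. In CU the log2 FC was −0.21 ± 0.11 and in CV −0.18 ± 0.11 (SE, n = 10), neither of them called. The fish of both diets overlapped those fed FM, with 4 of 10 CU fish and 2 of 10 CV fish below the lowest FM fish.

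CLD14 is known in mammals from the tight junctions of the inner ear and the kidney. Its FM values were between 5.18 and 6.93, with a median of 5.96. In SC fish they were between 4.23 and 5.30, with a median of 4.86. The probe was set to missing as dim or not uniform in SC fish 4, 6 and 9, whose values were imputed. Of the 7 SC fish in which it was measured 6 lay below the lowest FM fish, and their mean was 4.73 ± 0.35 (SD, n = 7). The log2 FC over all 10 SC fish was −1.11 ± 0.23 (SE), a 2.15-fold lower intensity (adjusted p = 3.27e-05, limma's F-test over the 5 contrasts).

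In SBM the CLD14 values were between 4.68 and 5.53, with a median of 4.97. All 7 fish were below the FM mean and 4 below the lowest FM fish. Complete separation of SBM and FM fish, in either direction, was found for 7.92% of all probes and not for CLD14. The log2 FC was −0.84 ± 0.25 (SE, n = 7), or 1.79-fold lower. With the position number as a block, an alternative chosen after seeing the data, it was −0.23 and not called. In KM the values had the widest spread of any diet, from 3.19 over a median of 5.15 to 6.14. The SD in KM was 0.82, against 0.31 to 0.52 in the other diets. The KM log2 FC was −0.88 ± 0.23 (SE, n = 10), and with FM and KM alone in the fit its adjusted p was 0.0540, which ends the call. With normexp background correction CLD14 had −0.22 in SBM, −0.27 in SC and −0.22 in KM, none of them called.

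Fish fed CV had CLD14 values from 5.27 to 6.53 with a mean of 5.96 ± 0.47 (SD, n = 10), and none lay below the lowest FM fish. The log2 FC in CV was 0.06 ± 0.23 (SE, n = 10), with a 95% confidence interval from −0.39 to 0.51. Its sign depended on the processing. Over 17 other settings it ran from −0.31, with 75th percentile scaling, to 0.61, and it was negative in 6. With the authors' deposited table of values it was −0.14. In CU the log2 FC was −0.38 ± 0.23 (SE, n = 10), and 1 of 10 fish lay below the FM fish. Neither was called.

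CADH2, also known as N-cadherin, is a classical cadherin of nerve, muscle and mesenchymal cells. Its FM values were between 5.28 and 7.28, with a median of 6.23. In SBM fish they were between 4.94 and 5.73, with a median of 5.05. Of the 7 SBM fish 5 lay below the lowest FM fish. The log2 FC was −1.12 ± 0.27 (SE, n = 7), a 2.18-fold lower intensity (adjusted p = 0.00177, limma's F-test over the 5 contrasts). In SC the values ran from 4.26 over a median of 5.46 to 6.42, and in KM from 4.32 over a median of 5.43 to 6.26. In each of these diets 4 of 10 fish lay below the lowest FM fish, while the others overlapped the FM group. SC had a log2 FC of −0.97 ± 0.25 and KM one of −0.90 ± 0.25 (SE, n = 10). With normexp background correction, which adds 50 units, CADH2 had −0.33 in SBM, −0.27 in SC and −0.27 in KM, under the limit on size and not called.

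In CU the log2 FC of CADH2 was −0.44 ± 0.25 and in CV −0.36 ± 0.25 (SE, n = 10), with no call, but with 75th percentile scaling CV had −0.70 and was called. All 10 CU fish lay below the FM mean, yet only 1 below the lowest FM fish. With the block on position CADH2 had log2 FCs of −2.93 in KM, −2.78 in SBM, −1.94 in CV and −1.36 in CU, all called, and CLD14 had −2.69 in KM and 0.61 in CV. That block rests on the single FM, SC, KM and CV arrays that shared position number 1 with CU. It holds only part of the place on a slide.

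**Figure D2:**
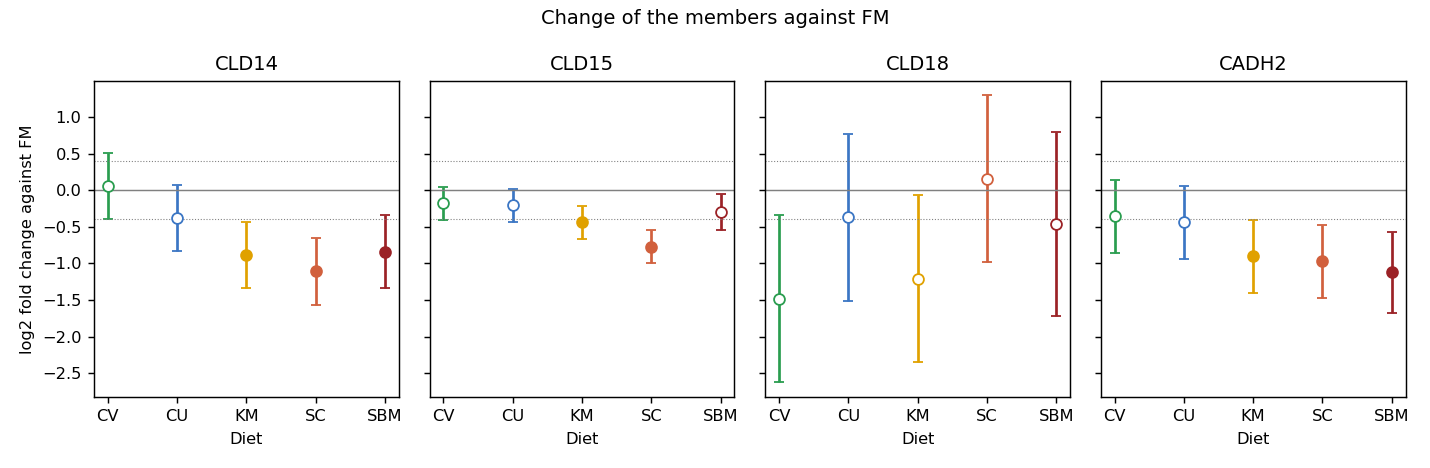
Log2 fold change against FM (y axis) of each member in the 5 other diets (x axis), with 95% confidence intervals from the fit over all probes and dotted lines at the limit of 0.4. Filled points were called and open points were not, and the intervals of CLD18 are the widest.

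CLD18 is known in mammals as a barrier claudin of the stomach and the lung. No diet was called for it (adjusted p = 0.0633, limma's F-test over the 5 contrasts). Values in FM fish were between 4.16 and 9.01 with a median of 6.31, and in SC fish between 5.11 and 9.78 with a median of 6.29. CU fish were as far apart, from 4.33 over a median of 5.88 to 8.79. The highest values in KM and CV were lower, at 6.31 and 6.59. The range within FM fish thus covered every SBM and CU fish and 9 of 10 fish in each of SC, KM and CV.

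The log2 FC of CLD18 was −1.49 ± 0.57 in CV and −1.21 ± 0.57 in KM (SE, n = 10). In both diets all 10 fish lay below the FM mean. In KM it was called with the fish number or the slide as a block. In CV it was called under 7 of 18 other settings, with adjusted p-values of 0.0169 to 0.0409 (limma's F-test; 0.0169 to 0.570 over all 18), and without FM fish 2, FM fish 10 or CV fish 6. Over the 18 settings the log2 FC in CV ran from −1.85 to 0.16 and was negative in 17. It reached 1.17 in SBM, where 17 were negative, and 1.41 in CU, where 16 were. The log2 FC in SBM was −0.46 ± 0.63 (SE, n = 7), in CU −0.37 ± 0.57 and in SC 0.15 ± 0.57 (SE, n = 10). The study named CLD18 among the genes lowered in SC and SBM. With the authors' deposited table of values it had 0.10 in SC and −0.51 in SBM, neither called. The SD between fish of 1 diet was between 0.73 in CV and 1.65 in CU. These SDs stood between the 96.0th and the 99.7th percentile of all probes in the same diet, so that CLD18 was among the probes that varied most between fish fed alike.

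The spread of CLD18 was shared with other probes. Among 2330 named probes, the one most like it over the 57 arrays was EXOS2, a subunit of the RNA-degrading exosome, with r = 0.989. Next came MARH4, a membrane-bound ubiquitin ligase, with r = 0.987 and TRI29, a tripartite motif protein, with r = 0.979. With the diet means taken off these values were 0.988, 0.985 and 0.974, so the likeness lay within diets. In all, 20 probes of the 12064 others had an r over 0.9 with CLD18, 9 of them named, while CLD14, CLD15 and CADH2 had none. EXOS2 was called below FM in CV, with a log2 FC of −1.76 ± 0.60 (SE, n = 10), and in no other diet.

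**Figure D3:**
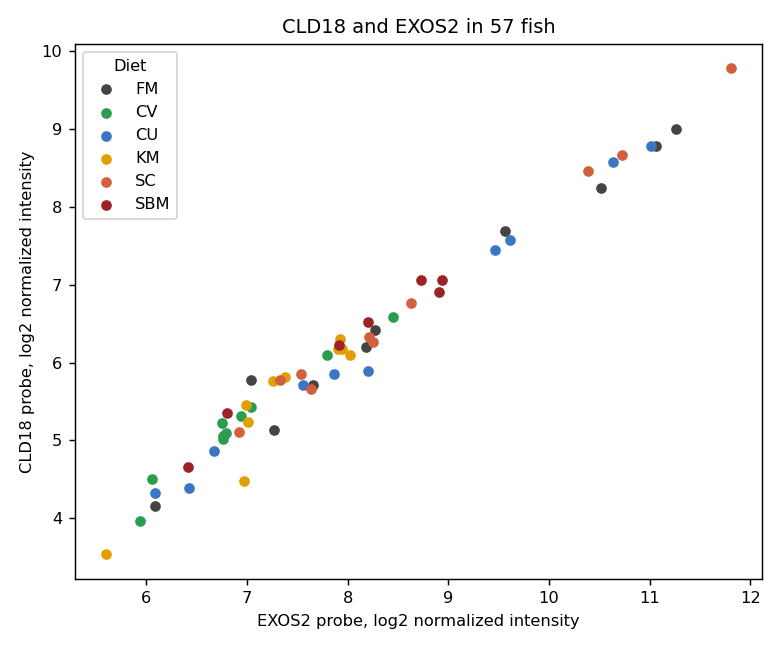
Log2 normalized intensity of the CLD18 probe (y axis) against that of the EXOS2 probe (x axis), 1 point per fish and coloured by diet. The 57 fish lie along 1 line (r = 0.989), with FM, SC and CU fish at its upper end.

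The other members had looser likeness among named probes. For CLD14 the closest were PI15, a peptidase inhibitor, with r = 0.754, ASB13, a SOCS box protein, with r = 0.704, and SAT1, an enzyme that acetylates polyamines, with r = 0.702. For CLD15 they were NAGAB, a lysosomal glycosidase, with r = 0.815, FAHD2 with r = 0.756 and NCOA4, which brings ferritin to the lysosome, with r = 0.753. For CADH2 they were CADHO, named as neural cadherin-2, with r = 0.796, the bile acid receptor NR1H4 with r = 0.722 and the growth factor PDGFA with r = 0.679. These correlations run over 57 arrays that share diets, and those within diets were between 0.458 and 0.707. Among the members themselves CLD14 and CLD15 had an r of 0.56, which was 0.25 with the diet means taken off. CLD15 and CLD18 ran opposite to each other within diets, at −0.38.

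To ask whether a member differed from its level with soybean meal alone, each diet with a microbial ingredient was set against SBM. These diets also held less fish meal than SBM, so the ingredient and the loss of fish meal cannot be told apart. CLD14 was higher in CV than in SBM, by 0.90 ± 0.25 on the log2 scale (SE, adjusted p = 0.0101, limma), or 1.87-fold. All probes called between CV and SBM made up 14.4% of those tested. CADH2 was 0.76 ± 0.27 higher in CV (adjusted p = 0.0506) and 0.69 ± 0.27 higher in CU (adjusted p = 0.0994), which did not pass. CLD15 in SC was 0.47 below its level in SBM, with an adjusted p of 0.0708, and only 0.307% of all probes passed between SC and SBM. No member passed between KM and SBM, where 10.9% of the probes did, or between CU and SBM, where 9.44% did. The 95% confidence interval of the difference between KM and SBM ran from −0.54 to 0.46 for CLD14 and from −0.33 to 0.77 for CADH2.

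From the highest to the lowest group mean, CLD15 had the order FM, CV, CU, SBM, KM and SC, and CADH2 the order FM, CV, CU, KM, SC and SBM. CLD14 followed the order CV, FM, CU, SBM, KM and SC, and CLD18 the order SC, FM, CU, SBM, KM and CV. Of the 20 steps between neighbours in these orders 1 passed limma's test, the step of 0.33 ± 0.11 (SE) in CLD15 from KM down to SC (adjusted p = 0.0396). Between KM and SC 11.8% of all probes passed.

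Expression was then set against the epithelium score that each fish had from histology. The score was 0 in all 10 FM fish and 2 in all 7 SBM fish, a group from which the study had removed a tank for its histology. Slopes were fitted within CU, KM and SC. CV, with 8 of 10 fish at 0, 1 at 0.5 and 1 at 2, was left out, although SC, with 8 fish at 2, 1 at 1 and 1 at 0.5, was as uneven. No member had a slope that passed limma's test, and neither did any other probe of the 12065, so that 0% were called in each fit. At an unadjusted p of 0.05, 780 probes (6.46%) passed in the joint fit over 30 fish, 2144 (17.8%) within CU, 374 (3.10%) within KM and 186 (1.54%) within SC. The joint slope per unit of score was −0.11 ± 0.18 for CLD14, 0.11 ± 0.08 for CLD15, 0.05 ± 0.44 for CLD18 and −0.17 ± 0.19 for CADH2 (SE, n = 30). Their 95% confidence intervals all held 0, and that of CADH2 ran from −0.57 to 0.22.

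CLD15 values can be set side by side at equal scores. Of the fish with a score of 2, the 8 SC fish had a mean of 10.50 ± 0.23, the 5 KM fish 10.92 ± 0.33 and the 7 SBM fish 10.97 ± 0.13 (SD). The 6 CU fish with a score of 0 had a mean of 10.95 ± 0.16, which was 0.32 below the FM mean. Within CU the 3 fish with a score of 1 had the higher mean, 11.32 ± 0.27 (SD). These groups were not tested against each other.

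**Figure D4:**
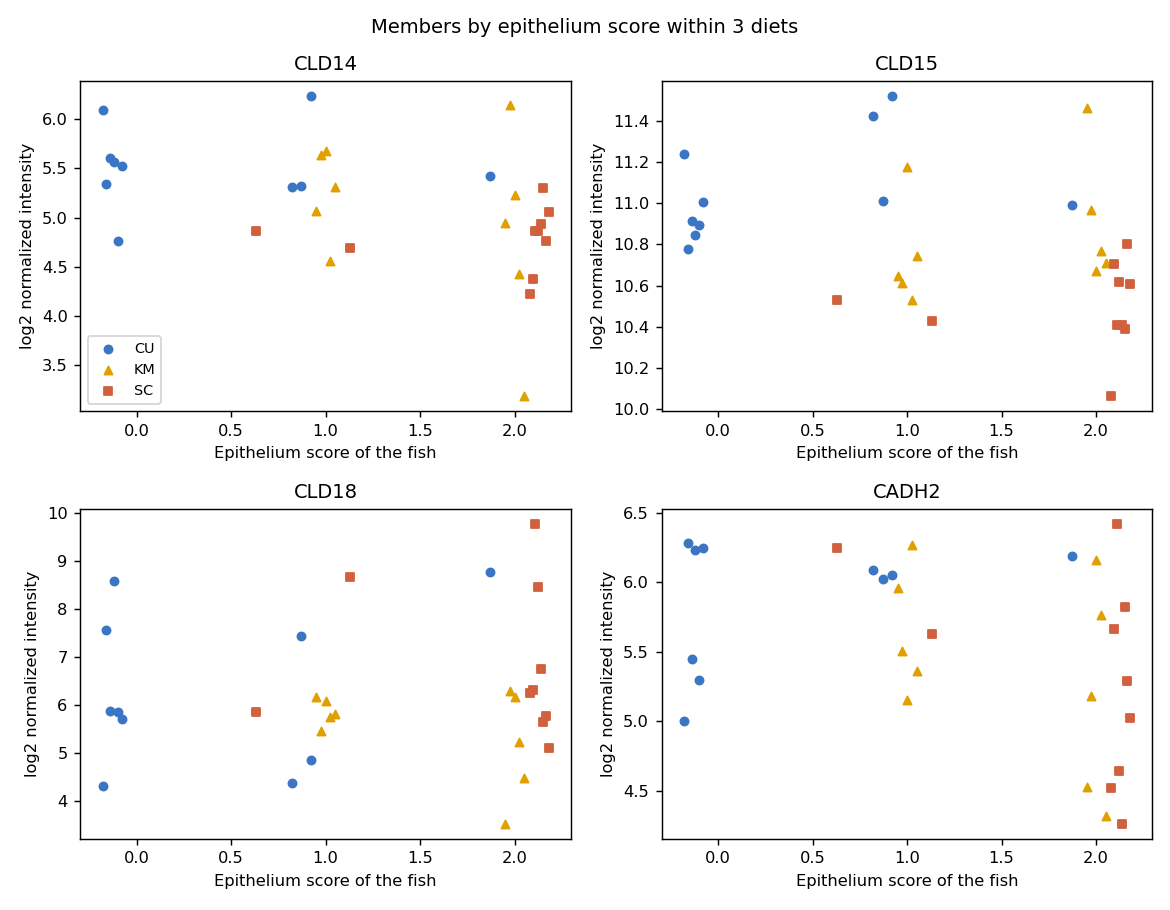
Log2 normalized intensity of the 4 members (y axis) against the epithelium score (x axis) in CU, KM and SC, 1 point per fish and shifted sideways by diet for clarity. At a score of 2 the SC fish have the lower CLD15 values, with a mean of 10.50 against 10.92 in KM.

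More of the other junction probes were called above FM than below it in SBM and SC, under each scaling tried. Of 15 further probes whose gene names hold a junction term, 11 were called above FM and 1 below in SBM, and 9 above and 2 below in SC. In KM 5 were above and 1 below, in CU 3 above and in CV 8 above. Above FM, 13.7% of all probes were called in SBM, 13.2% in SC, 10% in CV, 9.3% in KM and 2.02% in CU. The list's median log2 FC was 0.58 in SBM, against 0.09 over all probes, and 0.58 in SC, against 0.06. These probes carry names only because the study listed them as changed on these arrays, so their counts are not independent evidence. Scaling to the 75th percentile of each array left 3 above FM in CV, and subtracting the diet's median over all probes left 1. In SBM those counts were 9 and 7. The first scaling changed the median log2 FC of all probes from 0.17 to −0.02 in CV, from 0.14 to −0.03 in KM and from 0.09 to −0.08 in SBM.

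DSC2, a desmosomal cadherin, was called above FM in all 5 diets, with log2 FCs of 1.27 ± 0.18 in SBM (SE, n = 7) and of 0.73 to 0.85 in the other diets. CADH4, another classical cadherin, was also above FM in all 5 diets, at 0.81 ± 0.10 in SBM. It was closer to the limit of 0.4 in KM, at 0.51, in CU, at 0.46, and in CV, at 0.44. The median over all probes was itself 0.14 in KM and 0.17 in CV, so the calls there depend on the scaling. CNBP1, a protein that binds beta-catenin and is on the list for the catenin in its name, had 1.12 ± 0.13 in SBM. Among plaque proteins, CING of the tight junction had 0.73 ± 0.20 and the desmosomal proteins PKP1 and DESP had 0.62 ± 0.15 and 0.53 ± 0.14 in SBM. The gap junction protein CXB6 had 0.58 ± 0.19 and the MARVEL domain protein MALD3 0.51 in SBM. MALD2, known as tricellulin, was called below FM in SC, at −0.51, but above FM in CV, at 0.42. That CV value was only just over the limit of 0.4, beside the median of 0.17 over all probes in CV.

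CLDY, a claudin-like probe, was called above FM in 3 diets. Its values were between 4.45 and 5.60 in FM and between 4.79 and 6.89 in SBM, and 3 of 7 SBM fish lay above the highest FM fish. Its log2 FC was 0.88 ± 0.30 in SBM (SE, n = 7), 0.66 in SC and 0.66 in CV. CADHO, the neural cadherin probe closest to CADH2, was called below FM in the same 3 diets as CADH2. Its values were between 6.92 and 8.68 in FM and between 5.92 and 7.17 in SBM, where 6 of 7 fish lay below the FM fish. CADHO had a log2 FC of −1.19 ± 0.30 in SBM, −0.88 ± 0.27 in SC and −0.91 ± 0.27 in KM, each called, and of −0.25 in CU and 0.03 in CV, neither called (SE). All comparisons with FM share the same 10 FM arrays.

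**Figure D5:**
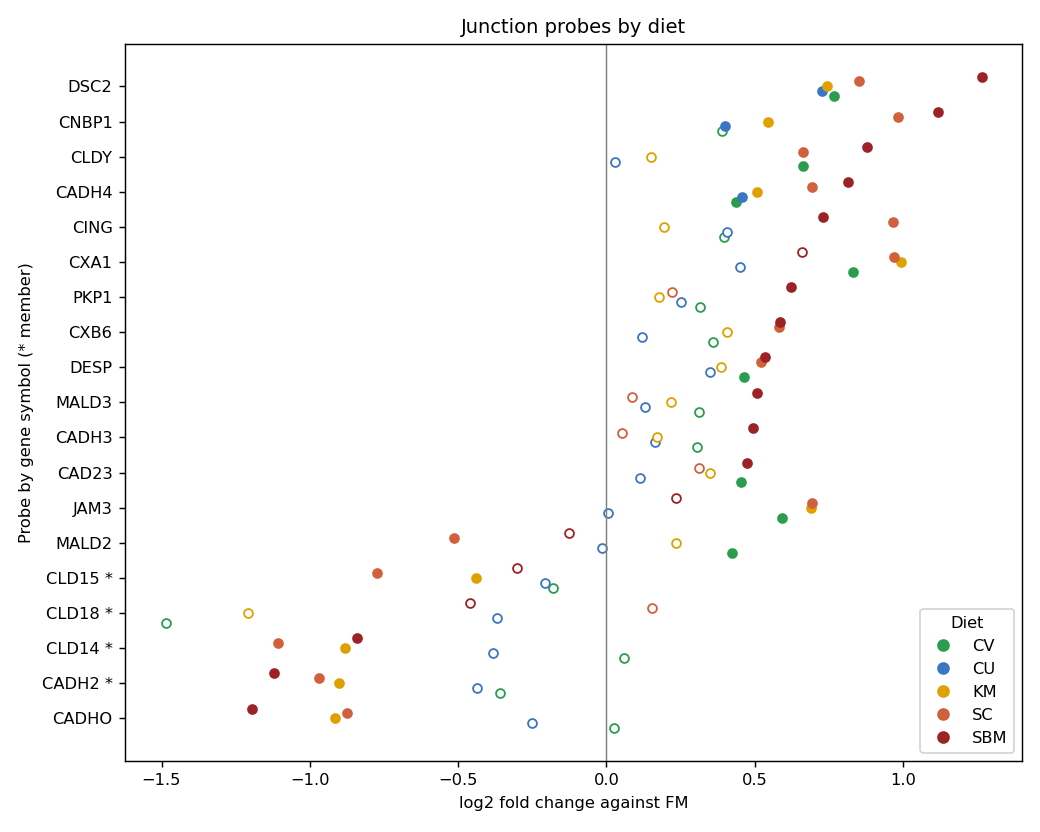
Log2 fold change against FM (x axis) of the members and of 15 other junction probes (y axis, ordered by SBM) in 5 diets, filled where called and open where not. The members and CADHO lie at the lower end, DSC2 and CNBP1 at the upper end with 1.27 and 1.12 in SBM.

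Of 19 probes other than the members that the study listed for cell adhesion molecules, 3 (CLDY, CADHO and JAM3) are also on the junction list. The probes of DPA1, HB23, TCB2 and CD2 are also on the leukocyte list below. Of the 19, 9 were below and 4 above FM in SBM, and 7 below and 9 above in SC. Those below in SBM were ITA6, PTPRF, CADHO and histocompatibility chains or T-cell proteins (HA1F, 1A01, DPA1, HB23, TCB2 and CD2). In KM 2 were below and 6 above, in CU 2 above, and in CV 1 below and 7 above, beside the shares of all probes given above. The study's list holds only probes it had found changed on these arrays, so these counts too are not independent evidence. In CV 75th percentile scaling left 1 below and 2 above, and subtracting the diet's median 3 below and 3 above. In KM those settings left 3 and 4 above. SDC2, a heparan sulphate proteoglycan, had the largest log2 FC of this list in SBM, 2.35 ± 0.25 (SE, n = 7), and was called above FM in all 5 diets. C99L2, a CD99-like protein, had 1.83 ± 0.27 in SBM. HA1F, a class I histocompatibility chain, had −1.66 ± 0.48 in SBM. It belongs to a gene family whose copies a probe may not tell apart, and the same may hold for other salmon genes with a near-identical copy.

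Over all lists together, markers of cell types were called mostly in SBM and SC and less in KM, as was the case over all probes. Muscle and stroma probes differed from this, with calls in SC and KM but not in SBM. Of all probes tested, 22.3% were called in SBM, 22.5% in SC and 11.2% in KM. The marker probes, too, were named from listings of probes that the study had found changed on these arrays. Counts of their calls are therefore not independent evidence. Of 7 enterocyte probes 4 were below FM and 3 above in SBM, where the 3 above were all of keratin K1C18, and 4 below and 2 above in SC. In KM none was below and 2 were above. Their mean log2 difference from FM was between −0.96 and −0.21 per fish in SC, between −0.43 and 0.06 in SBM and between −0.43 and 0.86 in KM. Of 14 leukocyte probes 8 were below and 1 above FM in SBM and 8 below in SC, with no call in KM, and their mean per fish was between −0.55 and −0.09 in SBM. The list includes the probes of DPA1, HB23, TCB2 and CD2 already counted for cell adhesion. The study's histology, by contrast, found that leukocytes had accumulated in the lamina propria of SBM and SC fish. Numbers of leukocytes were not measured on the arrays. Of 5 muscle and stroma probes 0 were called in SBM, while 4 were above FM in SC and 2 in KM. Their means per fish were between 0.30 and 0.80 in SC, between 0.13 and 1.00 in KM and between −0.55 and 0.38 in SBM. Of 3 proliferation probes 2 were above FM in SBM, and in SC 2 were above and 1 below, with no call in KM. Those above were both of the cyclin CCNB1. The other probe, of TOP2A, went the other way, at −0.28 in SBM, not called, and −0.42 in SC. In CU 1 enterocyte probe was above and 1 leukocyte probe below FM, and in CV 1 leukocyte probe and 1 muscle and stroma probe were above. None of these lists had a probe at 0, but some leukocyte probes read very low. The T-cell receptor probe called in CV stood at the 0.829th percentile of all probes and was set to missing in 6 arrays. Probes of TVA1 and TVA3, also T-cell receptor chains, called in SC stood at the 2.78th and 1.26th, missing in 5 and 3 arrays. Villin, sucrase-isomaltase and cadherin-1 were not named among the probes here. The part of a changed mix of cell types in the lower CLD14, CLD15 and CADH2 values was not tested.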

How the data were processed

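Total RNA of the distal intestine of 57 fish was hybridised to one-colour Agilent arrays. Per the file headers, the authors deposited spot intensities from Agilent Feature Extraction 10.7.1.1, background-subtracted and not normalized between arrays, with 15377 spots of which 536 were controls. The authors also deposited a table of normalized log2 values of 12064 probes, used as an alternative. The deposited flags were used to set spots that were dim or not uniform to missing (1264 to 3320 per array). After quantile normalization and log2 transformation, probes with over 15% of arrays missing were left out, and 4245 values (0.617%) were imputed from the 10 nearest probes. limma 3.58.1 in R 4.3.3 was fitted to all 57 arrays, with Benjamini-Hochberg adjustment over 12065 probes, and its fit was tested on simulated data. The nested F-test and the limit of 0.4 follow the study's methods. On the deposited table they gave 634 calls in CV and 969 in KM, the numbers the study reported. With the values used here 1279 and 1347 were called, so the shares for these diets are above the study's. Probe names came from the study's listings, of which 1999 rows were held here for each, so other junction probes were not named. Named were the 4 members, the 3 named probes most like each, and from the lists those called with the largest log2 FC in SBM and every claudin or cadherin-2. Values of MALD2, which was not called in SBM, were given in addition. Members and lists were chosen with earlier results of these data known. Alternatives changed scaling, dim filter, imputation, background, blocks, samples and thresholds. The normexp alternative used the median signal. The number of arrays limits the precision.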

Additional observations from a re-analysis of the deposited data

Results flagged for a closer look

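CLD14 differed between 2 soybean diets by a test of the difference itself. Its log2 intensity was 0.90 higher in CV than in SBM (adjusted p = 0.0101, limma), and 10 CV fish were set against 7 SBM fish. No fish stood apart from its diet by Dixon's test in the 24 sets of values of the members, a test that chance passes in about 1 of 20 sets.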

How the results depend on the processing

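Members called below FM numbered 2 in SBM, 3 in SC, 3 in KM and 0 in CU and CV, and no call reversed its sign under any alternative. When 1 fish was left out at a time, the count stayed at 2 in SBM, 3 in SC and 0 in CU, and ran from 2 to 3 in KM and from 0 to 1 in CV. Scaling by the 75th percentile gave 2 in CV, CLD18 and CADH2. The count there was 1, always CLD18, with no filter on dim spots, with dim spots removed after normalization, with the deposited table, with each diet's median shift subtracted and with the slide as a block, where CLD18 was also called in KM. In all these settings but the slide block, calls over all probes in CV fell from 1279 to between 548 and 634. Normexp background, which adds 50 units to signals of that size, brought CLD14 and CADH2 under the limit of 0.4 and left 0 in SBM, 1 in SC and 1 in KM. Calls over all 12065 probes fell there too, from 2689 to 1786 in SBM, from 2715 to 1677 in SC and from 1347 to 541 in KM. A limit of 1 on the log2 FC left 1 in SBM, 1 in SC and 0 in KM. In SBM 1 was called with no filter on dim spots, and 1 among probes without a missing value, which leave out CLD14. Over all probes these settings called 2742 of 14841 and 2535 of 10615 in SBM. Scan day 1 alone gave 1 in SBM and 1 in KM, and scan day 2 alone 0 in SBM, 1 in SC and 0 in KM, with fewer fish in each. The position number, only part of the place on a slide, gave as a block 1 in SBM, 1 in CU and 2 in CV. Of these CLD14 in CV lay above FM, and the call of CLD15 in KM ended. Scan days and position were chosen after seeing the data. Shares over all probes are not given for the limit of 1, the scan days or the blocks. Against SBM, with 1 member passing in CV and 0 elsewhere, 75th percentile scaling gave 2 in CV, 2 in CU and 1 in SC, the slide as a block 2 in CV, and the deposited table, added after seeing the data, 1 in CU and 1 in SC. Without SC fish 8 the CLD15 difference between SC and SBM was −0.51 and passed (adjusted p = 0.0370, limma). The count of slopes on the epithelium score was 0 in all settings. Other causes were not tested.

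With the fish number as a replicate block the count was 1 in CV, where CLD18 was called, CLD18 was also called in KM, and no other call changed. Fish number and slide overlapped in part. With the diet means taken off, 48 of 135 same-numbered pairs from different diets correlated above 0.1, and the median correlation was 0.05. Of the same-numbered pairs 50 shared a slide (median 0.12, 28 above 0.1) and 85 did not (median 0.02, 20 above 0.1). The 99 pairs of other numbers on 1 slide had a median of 0.08, with 44 above 0.1. The 1116 pairs of other numbers on different slides had a median of −0.01, with 226 above 0.1. Whether the number paired fish beyond the slide was not tested. The dim signals of CLD14, CADH2 and CLD18 limit their precision, 3 CLD14 values in SC were imputed, and the SD of CLD18 between fish reached 1.65.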
